A study of Mus musculus with 11 samples.

Results

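The 10 genes described here, called pathway genes, encode IL-15, its receptor chains, the kinases and STAT protein below them, 2 feedback inhibitors and the α chain of the related IL-2 receptor (*Il2ra*): *Il15*, *Il15ra*, *Il2ra*, *Il2rb*, *Il2rg*, *Jak1*, *Jak3*, *Stat5b*, *Cish* and *Socs1*. They were chosen by name, with earlier results of these data known, and all 10 were found among the 758 genes measured. The samples were 11 MC38 tumors, grown from a mouse colon carcinoma cell line. C57BL/6 mice of 6 to 8 weeks had received 100000 to 200000 MC38 cells SC in the flank and were randomized after 5 days. The control group (n = 5 tumors) was given PBS. The treated group (n = 6 tumors) was given IP injections of 3 µg hetIL-15, by the molar mass of its IL-15 chain, 3 times per week. hetIL-15 is the IL-15 chain bound to the IL-15 receptor α chain, purified from HEK293 cells, a human cell line. All tumors were excised 3 h after injection 4, so that the data describe 1 time point in 1 tumor model. RNA of each whole tumor, cancer cells and infiltrating cells together, was read on the nCounter PanCancer Immune Profiling Panel, in which color-coded probes bound to each mRNA are counted.

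IL-15 is handed to responding cells by IL-15Rα on the cell that makes it, a step known as transpresentation. The responding cell, typically an NK cell or a CD8+ T cell, receives it through IL-2/IL-15Rβ and the common gamma chain, which activate the kinases JAK1 and JAK3 and through them STAT5. STAT5 induces *Cish* and *Socs1*, whose products (CIS and SOCS1) dampen cytokine signaling in turn. In NK cells of mice, CIS is known as a brake on the response to IL-15.

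The question was which steps of this pathway differed at the mRNA level between tumors of hetIL-15-treated and control mice. *Cish* rose by 1.29 ± 0.25 (SE) on the log2 scale, a 2.45-fold change, and *Il2rb* rose by 1.13 ± 0.25, a 2.18-fold change. These 2 of 10 genes passed an adjusted p of 0.05 (limma, Benjamini-Hochberg over 758 genes). Across all genes tested 1.72% passed in the upward direction and 0.396% in the downward direction, and 0 of the 10 genes passed downward. The other 8 genes did not pass. Of the 10 genes, 5 had a positive and 5 a negative log2 fold change. The median log2 fold change was 0.13 over the 10 genes and −0.03 over all 758 genes. At an unadjusted p under 0.05, *Socs1* and *Il2rg* joined *Cish* and *Il2rb*, giving 4 genes higher and 0 lower, against 7.39% and 4.49% of all genes.

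The mouse reference sequence around the start of *Cish* is shown because *Cish* had the largest fold change of the 10 genes and is a known STAT5 target. The stretch holds 2 copies of TTCNNNGAA, the STAT motif, which is its own reverse complement and so reads the same on both strands. The windows were taken from RefSeq (GRCm38.p6), and 100 bases before to 30 bases after the listed start are printed 5′ to 3′, with the motif in capitals. *Socs1*, the other feedback gene, is printed for comparison and has no match in its window. The *Cish* stretch is chr9:107296559-107296688 on the plus strand and the *Socs1* stretch is chr16:10785507-10785636 on the minus strand.
Cish: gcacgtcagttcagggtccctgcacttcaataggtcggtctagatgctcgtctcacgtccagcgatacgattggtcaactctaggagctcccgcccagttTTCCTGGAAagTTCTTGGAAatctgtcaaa
Socs1: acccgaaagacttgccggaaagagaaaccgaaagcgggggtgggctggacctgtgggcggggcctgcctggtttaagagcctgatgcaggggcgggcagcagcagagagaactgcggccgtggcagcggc

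The motifs of *Cish* lie at bases 1 to 9 and 12 to 20 after the listed start, 2 bases apart and without overlap. Windows of 300 bases (250 before and 50 after the start) were present for 8 of the 10 genes. Those of *Il15ra*, *Il2ra*, *Il2rg*, *Jak1*, *Jak3*, *Stat5b* and *Socs1* held no match. *Il15* and *Il2rb* had no window and were not searched. Of all 32851 windows in the table, 8.30% held at least 1 match and 0.457% held at least 2. Among 680 windows of panel genes, 11.9% held at least 1 match and 9 windows held at least 2. Besides *Cish*, those 9 belonged to *Bcl6*, *Ccr6*, *Gbp5*, *Il18r1*, *Irf8*, *Klra7*, *Lta* and *Tlr6*. A match describes the letters of the reference only, and binding was not measured.

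**Figure D1:**
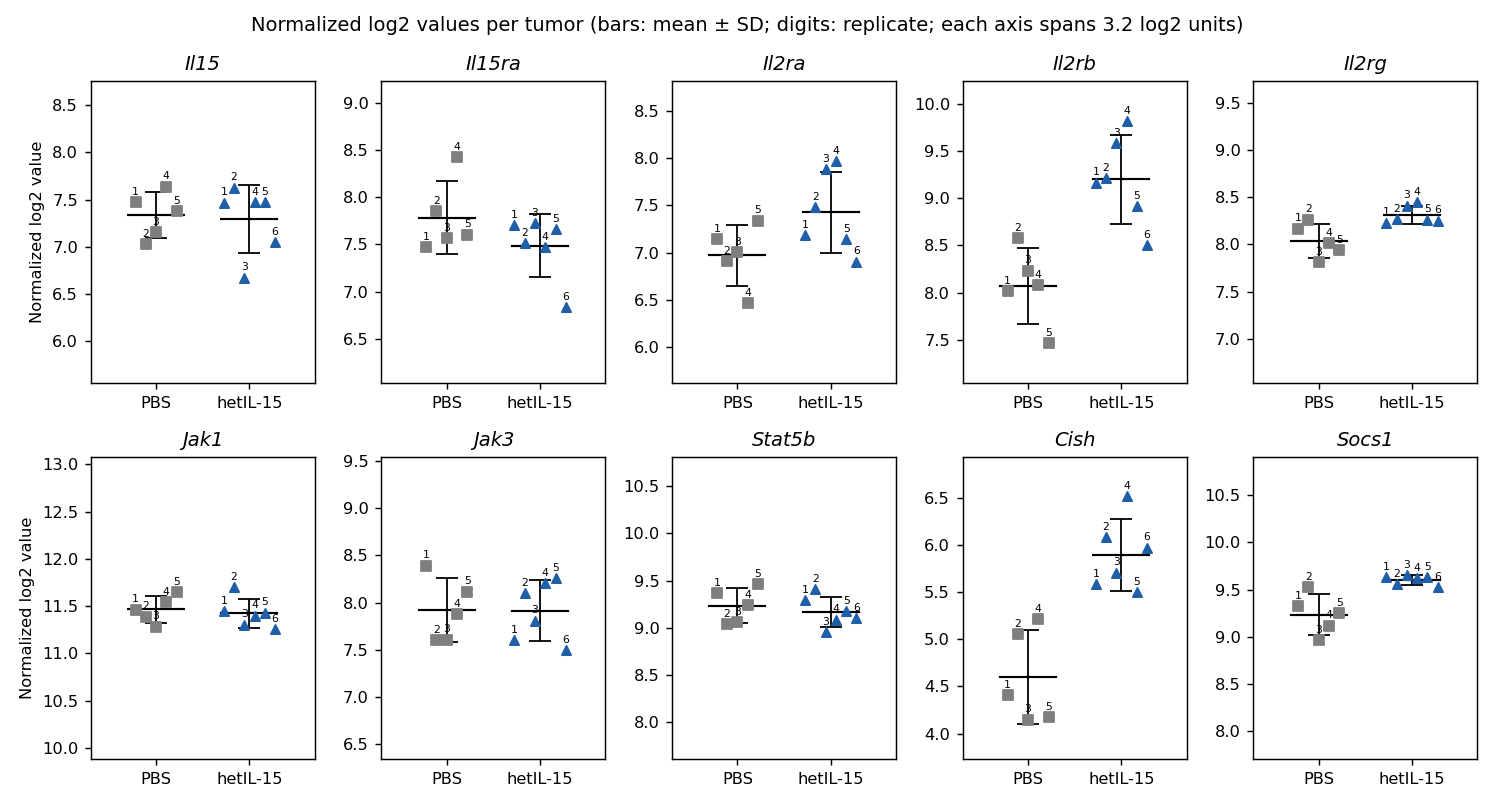
Normalized log2 values (y axis) of the 10 pathway genes in each tumor, 5 PBS (gray squares) and 6 hetIL-15 (blue triangles), with mean and SD as bars and the replicate as a digit. *Cish* is the gene whose groups do not overlap, and in *Il2rb* 5 of 6 hetIL-15 tumors lie above every PBS tumor.

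Values are the authors' quantile normalized log2 values, on which a difference of 1 is a 2-fold change. Median values per tumor lay between 7.66 and 7.68, and values taken off the log2 scale summed to between 999186 and 999245 per tumor. The depth behind a value is not known here, and the number of tumors limits the precision. The labels number the tumors without saying that each came from its own mouse, but the authors count 5 control and 6 hetIL-15-treated mice for these data. The p values set the difference between groups against the spread between these tumors. In whole tumors, more cells of a type and more mRNA per cell cannot be told apart. Of the markers of cancer epithelium, *Epcam* and *Cdh1* had log2 values between 3.75 and 6.58, and summed off the log2 scale they lay between 42.0 and 82.7 in PBS and between 41.7 and 166.8 in hetIL-15 tumors. *Krt8* and *Krt18* were not among the genes measured. Of all genes, 16 passed the adjusted threshold, 13 higher and 3 lower, and 11 higher and 1 lower after scaling to the housekeeping genes.

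On the feedback side, *Cish* measured 4.41, 5.05, 4.15, 5.22 and 4.17 in PBS replicates 1 to 5. In hetIL-15 tumors the lowest value was 5.50 (replicate 5), the median 5.84 and the highest 6.52 (replicate 4). All 6 hetIL-15 tumors lay above all 5 PBS tumors, as in 1.85% of all genes. The gap between the groups was narrow, since PBS replicates 2 and 4 stood well above the other PBS tumors. The group means were 4.60 ± 0.50 (SD, n = 5) and 5.89 ± 0.38 (SD, n = 6). The 95% interval of the log2 fold change ran from 0.74 to 1.84 (limma adjusted p = 0.0227). The exact two-sided permutation test over all 462 groupings gave p = 0.00216, the smallest p this design allows, which was 0.149 after adjustment over all genes. *Cish* was a gene of modest signal, but its mean of 5.30 lay above 3.84, the value below which the lowest 10% of genes fall.

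Whether *Cish* passed depended on single tumors. With each tumor left out in turn its log2 fold change stayed between 1.17 and 1.45, and it passed in 6 of 11 cases. The adjusted p (limma, Benjamini-Hochberg) lay just above 0.05 without PBS replicate 1 (0.0648), 3 (0.0574) or 5 (0.0623) and without hetIL-15 replicate 2 (0.0584) or 4 (0.0538). Without PBS replicates 4 and 5 together, an alternative added after seeing the data, the fold change was 1.35 and the adjusted p 0.0908.

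*Socs1*, which encodes a direct inhibitor of JAK kinases, was measured at 9.32, 9.52, 8.96, 9.12 and 9.25 in PBS replicates 1 to 5. In hetIL-15 tumors it ranged from 9.52 (replicate 6) through a median of 9.63 to 9.65 (replicate 3). In 5 of 6 hetIL-15 tumors *Socs1* lay above every PBS tumor, and replicate 6 was level with PBS replicate 2. The hetIL-15 tumors were tightly grouped, with a mean of 9.60 ± 0.05 (SD, n = 6) against 9.24 ± 0.21 (SD, n = 5) in PBS. The log2 fold change of 0.37 ± 0.10 (SE), or 1.29-fold, had a 95% interval from 0.14 to 0.59 and did not pass (limma adjusted p = 0.142, exact permutation p = 0.00433 before adjustment). Leaving out PBS replicate 2, the highest control, gave a log2 fold change of 0.44 that passed (adjusted p = 0.0392).

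The 2 feedback genes did not change by the same amount. The within-tumor difference of *Cish* and *Socs1* was larger in hetIL-15 than in PBS tumors by 0.92 ± 0.26 (SE) on the log2 scale (exact permutation p = 0.0152, adjusted p = 0.0265 over the 7 pairs of pathway genes compared). In 3 of 6 hetIL-15 tumors this difference exceeded that of every PBS tumor. Left out singly, PBS replicate 5 and hetIL-15 replicates 2, 4 and 6 took this adjusted p above the threshold, to between 0.0556 and 0.0583. Without hetIL-15 replicate 1, 3 or 5, also 5 tumors against 5, it was 0.0417. The adjustment ranks all 7 pairs together, so this value depends on the other pairs too. A pair that alone has the smallest possible p reaches 0.0556 with 5 tumors against 5.

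**Figure D2:**
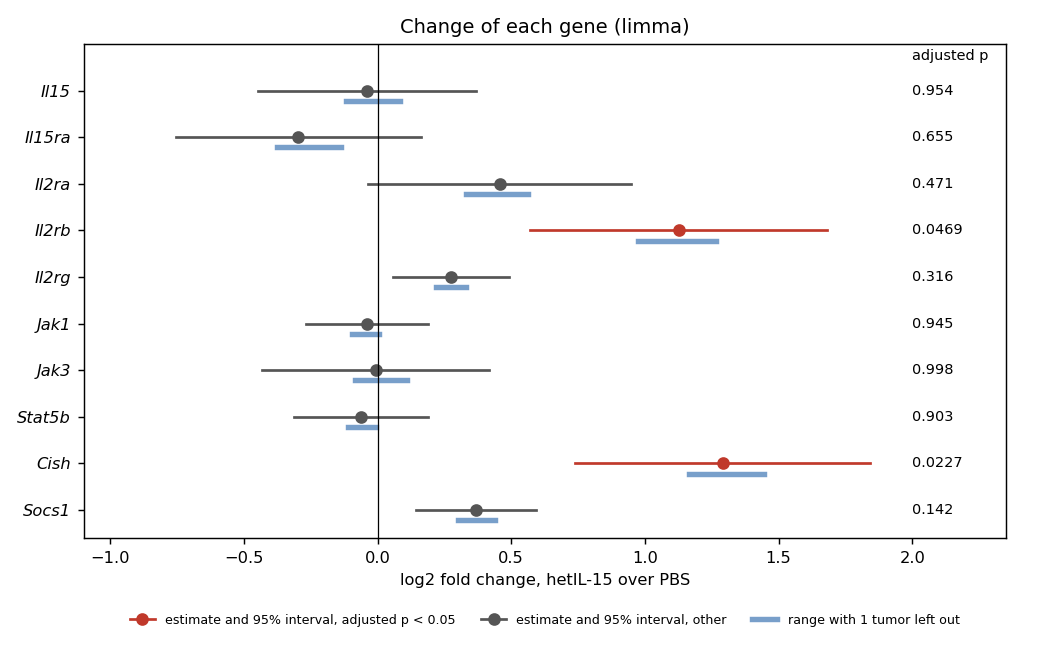
Log2 fold change of each pathway gene (x axis), hetIL-15 over PBS, with the 95% interval from limma and, in blue, the range with each tumor left out in turn. *Cish* (1.29) and *Il2rb* (1.13) are in red as past an adjusted p of 0.05, and the intervals of the remaining genes lie within 2-fold either way.

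Of the receptor chains on the responding cell, *Il2rb*, which encodes the β chain of both the IL-2 and the IL-15 receptor, was measured at 8.02, 8.57, 8.23, 8.08 and 7.46 in PBS replicates 1 to 5. In hetIL-15 tumors the lowest value was 8.50 (replicate 6), the median 9.19 and the highest 9.82 (replicate 4). The groups overlapped in 1 pair of tumors, as hetIL-15 replicate 6 fell just below PBS replicate 2. The means were 8.07 ± 0.40 (SD, n = 5) and 9.20 ± 0.47 (SD, n = 6). The 95% interval of the log2 fold change ran from 0.57 to 1.68 (limma adjusted p = 0.0469, exact permutation p = 0.00649 before adjustment). The adjusted p stood close to the threshold. It passed in 2 of 11 cases with 1 tumor left out (PBS replicate 2, or hetIL-15 replicate 6), and in the other cases the adjusted p was between 0.0650 and 0.122 with a log2 fold change between 0.97 and 1.18. Scaled to the housekeeping genes it was 1.21 (adjusted p = 0.0671), and without PBS replicates 4 and 5 it was 0.93 (adjusted p = 0.238).

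**Figure D3:**
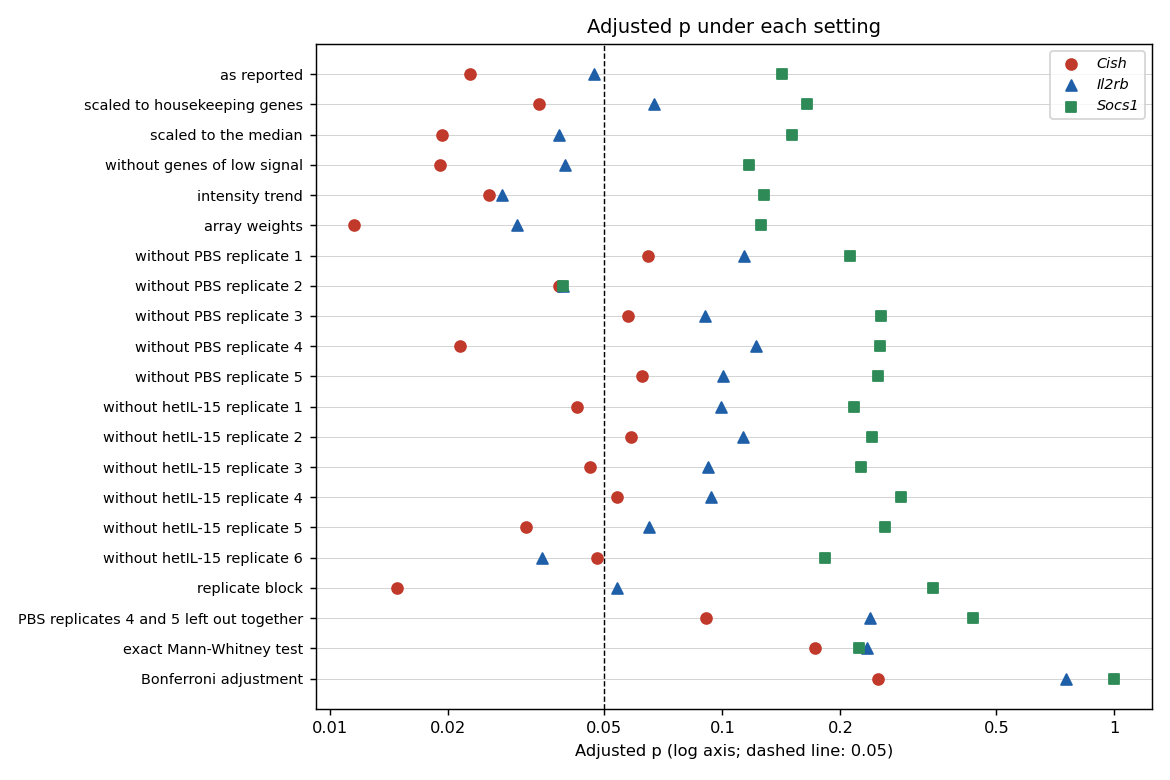
Adjusted p (x axis, log scale) of *Cish*, *Il2rb* and *Socs1* as reported and under each alternative (y axis), with a dashed line at 0.05. *Cish* lies left of the line in more settings than *Il2rb*, whose reported value of 0.0469 is near the line.

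*Il2rg* encodes the common gamma chain, the partner of the β chain. It measured 8.17, 8.26, 7.81, 8.01 and 7.94 in PBS replicates 1 to 5, and from 8.23 (replicate 1) through a median of 8.27 to 8.45 (replicate 4) in hetIL-15 tumors. In 3 of 6 hetIL-15 tumors *Il2rg* lay above every PBS tumor, and the other 3 lay near the top of the PBS range. The log2 fold change was 0.27 ± 0.10 (SE), with a 95% interval from 0.06 to 0.49, and did not pass (limma adjusted p = 0.316). The spread within groups was 0.14, among the smaller ones beside a median of 0.34 over all genes.

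*Il2ra* encodes the α chain that makes the receptor for IL-2 one of high affinity and that IL-15 does not use. It measured 7.14, 6.91, 7.001, 6.46 and 7.34 in PBS replicates 1 to 5, and from 6.90 (replicate 6) through a median of 7.33 to 7.97 (replicate 4) in hetIL-15 tumors. hetIL-15 replicates 2, 3 and 4 lay above every PBS tumor and the other 3 lay within the PBS range. The log2 fold change of 0.46 ± 0.22 (SE) had a 95% interval from −0.04 to 0.95 (limma adjusted p = 0.471).

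On the side of the presenting cell, *Il15ra* measured 7.47, 7.85, 7.56, 8.43 and 7.61 in PBS replicates 1 to 5. In hetIL-15 tumors it ranged from 6.84 (replicate 6) through a median of 7.59 to 7.73 (replicate 3). PBS replicate 4 was the highest tumor and hetIL-15 replicate 6 the lowest, and the remaining 9 tumors overlapped. The fitted change was −0.30 ± 0.21 (SE) on the log2 scale, with a 95% interval from −0.76 to 0.16 (limma adjusted p = 0.655). It was −0.14 without PBS replicate 4 and −0.17 without hetIL-15 replicate 6.

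*Il15* itself measured 7.47, 7.03, 7.15, 7.64 and 7.38 in PBS replicates 1 to 5, and from 6.67 (replicate 3) through a median of 7.47 to 7.63 (replicate 2) in hetIL-15 tumors. The groups overlapped almost fully. The log2 fold change of −0.04 ± 0.18 (SE) had a 95% interval from −0.45 to 0.37 (limma adjusted p = 0.954). The probe reads mRNA of the tumor and its infiltrate, and the injected protein adds nothing to it. The log2 fold changes of *Il15ra* and *Il15* differed by −0.26 ± 0.25 (SE), which was within the spread between tumors (exact permutation p = 0.333, adjusted p = 0.467). Leaving out hetIL-15 replicate 3 gave −0.43 (adjusted p = 0.0889), and it was −0.16 without PBS replicate 2 and −0.17 without PBS replicate 4 or hetIL-15 replicate 6.

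The receptor chains changed by unequal amounts. The log2 fold change of *Il2rb* exceeded that of *Il15ra* by 1.42 ± 0.26 (SE), and the within-tumor difference of these 2 genes was higher in 6 of 6 hetIL-15 tumors than in any PBS tumor (exact permutation p = 0.00216, adjusted p = 0.0152). It exceeded that of *Il2rg* by 0.85 ± 0.23 (exact permutation p = 0.0108, adjusted p = 0.0253), and 5 of 6 hetIL-15 tumors exceeded every PBS tumor. It exceeded that of *Il2ra* by 0.67 ± 0.26 (exact permutation p = 0.00649, adjusted p = 0.0227), again with 5 of 6 tumors above. Without PBS replicate 5, the tumor with the smallest difference, that value was 0.42 (adjusted p = 0.05). The within-tumor difference of *Il2rb* and *Il2ra* was nearly constant in hetIL-15 tumors, from 1.60 to 1.98, whereas it spread from 0.12 to 1.67 in PBS tumors. The permutation test also responds to such unequal spread, so its p for this pair does not measure a shift in means alone. Left out singly, hetIL-15 replicates 2 and 4 took all 3 adjusted p values to 0.0556, as did PBS replicate 5 for *Il2rb* and *Il2rg*. *Cish* and *Il2rb* were not separated by this test, with changes differing by 0.17 ± 0.27 (exact permutation p = 0.569, adjusted p = 0.664). That difference ranged from 0.010 without hetIL-15 replicate 6 and 0.013 without PBS replicate 3 to 0.28 without hetIL-15 replicate 3 and 0.32 without PBS replicate 4.

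The kinases and STAT5B showed small differences. *Jak1* encodes the kinase bound to the β chain and measured 11.46, 11.39, 11.28, 11.54 and 11.65 in PBS replicates 1 to 5, and from 11.26 (replicate 6) through a median of 11.42 to 11.70 (replicate 2) in hetIL-15 tumors. The tumors of both groups were interspersed. Its log2 fold change was −0.04 ± 0.10 (SE), with a 95% interval from −0.27 to 0.19 (limma adjusted p = 0.945).

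*Jak3*, whose product binds the common gamma chain, measured 8.39, 7.61, 7.61, 7.88 and 8.12 in PBS replicates 1 to 5, and from 7.50 (replicate 6) through a median of 7.96 to 8.26 (replicate 5) in hetIL-15 tumors. High and low tumors occurred in both groups. For *Jak3* the log2 fold change was −0.01 ± 0.19 (SE), with a 95% interval from −0.43 to 0.42 (limma adjusted p = 0.998). The changes of *Jak3* and *Jak1* differed by 0.03 ± 0.17 (exact permutation p = 0.866, adjusted p = 0.866).

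*Stat5b* encodes 1 of the 2 STAT5 proteins and measured 9.36, 9.04, 9.06, 9.24 and 9.46 in PBS replicates 1 to 5, and from 8.96 (replicate 3) through a median of 9.14 to 9.41 (replicate 2) in hetIL-15 tumors. The ranges were nearly the same. Its log2 fold change was −0.06 ± 0.11 (SE), with a 95% interval from −0.31 to 0.19 (limma adjusted p = 0.903). For 8 of the 10 genes, all but *Cish* and *Il2rb*, the 95% interval lay within a 2-fold change either way. Phosphorylation of JAKs and STAT5, the step by which they act, is not read by these probes.

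NK cell markers are given beside *Il2rb* and *Cish*. *Il2rb* is known as a gene of NK cells and of activated or memory T cells. Of 6 NK cell markers (*Ncr1*, *Klrb1c*, *Klrd1*, *Klrk1*, *Klrc1* and *Eomes*), 2 passed as higher, against 1.72% of all genes. The markers were chosen with earlier results of these data known, and the paper reports *Ncr1* and *Klrc1* as overexpressed. The count is therefore a description only. The median log2 fold change of the 6 was 0.63. Those that did not pass in limma were *Klrb1c* (0.72, adjusted p = 0.291), *Klrd1* (0.53, 0.369), *Klrk1* (0.27, 0.540) and *Eomes* (−0.15, 0.891). The 2 that passed were *Ncr1*, up by 1.10 ± 0.19 (SE, limma adjusted p = 0.0162), and *Klrc1*, up by 1.32 ± 0.25 (limma adjusted p = 0.0227). *Klrc1* did not pass when any of PBS replicates 4 and 5 and hetIL-15 replicates 3 and 4 was dropped (adjusted p between 0.0531 and 0.0623), and neither gene passed without PBS replicates 4 and 5 together (0.145 for *Klrc1* and 0.114 for *Ncr1*). Summed off the log2 scale, the NK cell markers lay between 661.2 and 972.8 in PBS and between 1041 and 1393 in hetIL-15 tumors, with no overlap. Of 7 T cell markers (*Cd3d*, *Cd3e*, *Cd3g*, *Cd8a*, *Cd8b1*, *Cd4* and *Cd5*) 0 passed in limma, the median log2 fold change was 0.07, and their sum lay between 255.8 and 439.6 in PBS and between 278.2 and 450.8 in hetIL-15 tumors. Some of them were low and imprecise, with 0.35 ± 0.54 (SE) for *Cd8a*, −0.13 ± 0.58 for *Cd4* and −0.57 ± 0.58 for *Cd5*. These values do not show that T cell numbers were unchanged. The paper reports more CD8+ T cells in treated MC38 tumors by flow cytometry and tissue staining, at a later time after the injection. Of the 20 markers of the other cell types (regulatory T cells, B cells, macrophages, dendritic cells, leucocytes and epithelium), 0 passed in limma, 2 had an unadjusted p under 0.05 (both lower), and the list medians ran from −0.60 in B cells to 0.30 in epithelium. The part of any cell type in the changes of *Il2rb* and *Cish* was not tested.

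The tumors also varied within groups. With the mean of each group subtracted, the gene most like *Il2rb* over the 11 tumors was *Klrd1* (Pearson's r = 0.87), a subunit of NK cell receptors, followed by *Cfb* (r = 0.83), a complement factor. For *Cish* they were *Il1rn* (r = 0.74), the IL-1 receptor antagonist, and *Prf1* (r = 0.74), which encodes perforin. *Il2rg* and *Socs1* were among each other's closest genes (r = 0.82), both together with *Klra15* (r = 0.89 and 0.80). Within the 6 hetIL-15 tumors the coefficients of *Socs1* were lower than within the 5 PBS tumors (0.42 and 0.91 with *Il2rg*, 0.45 and 0.83 with *Klra15*), as was that of *Cish* and *Prf1* (0.46 and 0.95), and these differences were not tested. *Jak1* and *Stat5b* were likewise close to each other (r = 0.86), and *Xbp1* was closest to *Stat5b* (r = 0.90). All these values come from the same RNA and a joint normalization, and the genes were picked as the highest of all others measured, so the coefficients are descriptions only.

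The remaining genes had other partners. *Il15* was most like *CD209e* (r = 0.94) and *Icosl* (r = 0.89), a lectin and a costimulatory ligand, whereas *Il15ra* was most like *Cd40lg* (r = 0.80) and *Bcl2l1* (r = 0.80). *Il2ra* was most like *Fez1* (r = 0.89) and *Mbl2* (r = 0.81), and *Jak3* was most like *Defb1* (r = 0.91) and *Irf2* (r = 0.79). Some of these partners were genes of low signal. Means in PBS and hetIL-15 tumors were 3.31 and 3.58 for *Defb1*, 4.21 and 3.97 for *Fez1*, and 4.26 and 3.56 for *CD209e*. Among the pathway genes, *Il15* varied with *Stat5b* (r = 0.73) and *Jak1* (r = 0.71), but less with *Il15ra* (r = 0.25).

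**Figure D4:**
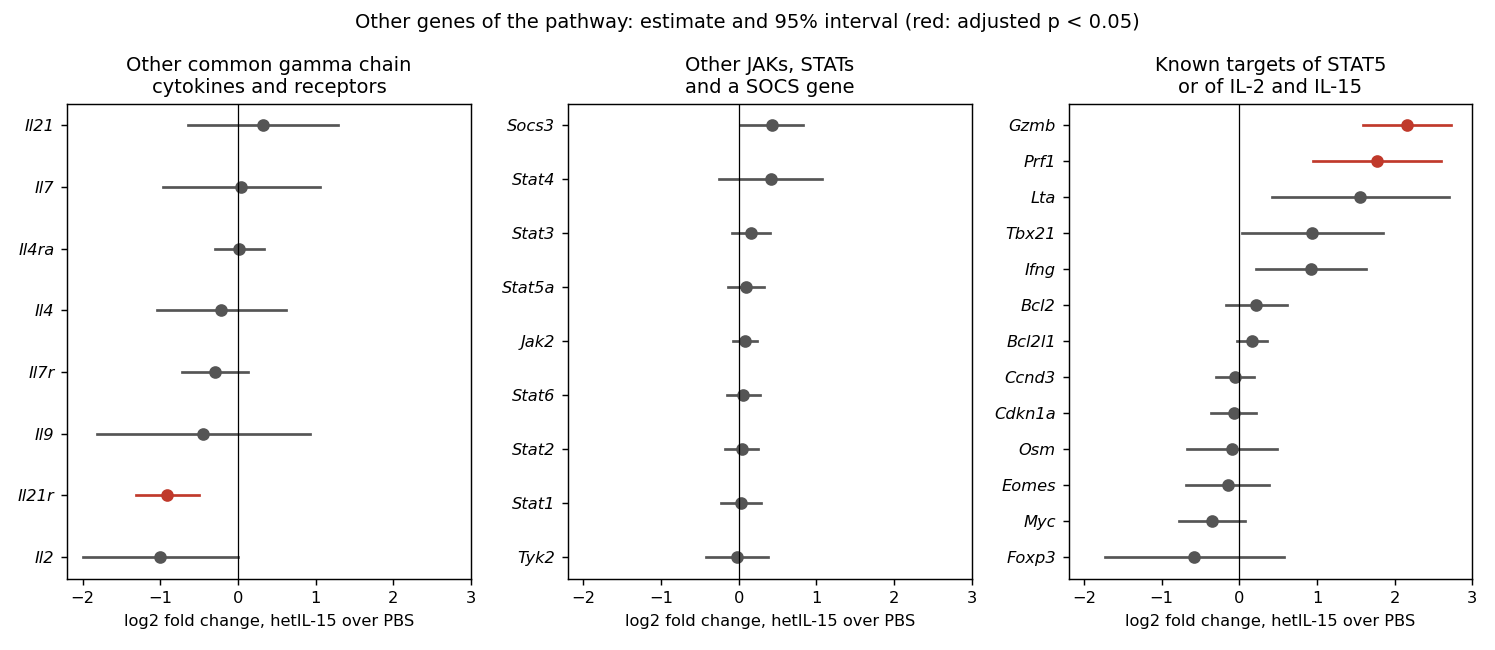
Log2 fold change (x axis, hetIL-15 over PBS) with 95% interval for the measured genes of 3 further lists: 8 cytokines and receptors of the common gamma chain family, 9 JAK, STAT and SOCS genes, and 13 known target genes. *Il21r* (−0.91), *Gzmb* (2.16) and *Prf1* (1.77) are in red as past an adjusted p of 0.05.

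Of the other cytokines and receptors of the common gamma chain family, 8 of 9 were measured (all but *Il9r*). *Il21r*, which encodes the receptor chain for IL-21, fell by 0.91 ± 0.18 (SE) on the log2 scale (limma adjusted p = 0.0259). Its values lay between 6.47 and 7.05 in PBS and between 5.21 and 6.29 in hetIL-15 tumors, with 6 of 6 hetIL-15 tumors below every PBS tumor. It no longer passed after scaling to the housekeeping genes (−0.82, adjusted p = 0.0705), nor in 7 of 11 cases with 1 tumor left out (PBS replicates 1, 2, 4 and 5 and hetIL-15 replicates 4, 5 and 6), where the adjusted p lay between 0.0528 and 0.0774. The other 7 did not pass. Of all genes, 0.396% passed in the downward direction. The median of the 8 was −0.26 (−0.39 without PBS replicate 3). *Il2*, a cytokine made by activated T cells, had a log2 fold change of −0.998 ± 0.45 (limma adjusted p = 0.416). It was a gene of low signal, with means of 4.13 in PBS and 3.13 in hetIL-15 tumors and a lowest value of 1.64. The lowest 10% of genes have means below 3.84. *Il7r* had −0.30 ± 0.19 (adjusted p = 0.626) and *Il21* 0.32 ± 0.44 (adjusted p = 0.857).

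Of the other JAKs, STATs and regulators, 9 of 13 were measured (all but *Socs2*, *Pias1*, *Ptpn2* and *Ptpn6*). None passed in limma in either direction, 1 of 9 was higher at an unadjusted p under 0.05 (7.39% of all genes were), and the median log2 fold change was 0.08. *Socs3*, a feedback gene of STAT3, was that gene, with 0.42 ± 0.18 (SE; limma adjusted p = 0.395). *Stat4*, which acts downstream of IL-12, had 0.41 ± 0.30 (adjusted p = 0.664), *Stat3* 0.16 ± 0.11 (adjusted p = 0.657) and *Jak2* 0.08 ± 0.07 (adjusted p = 0.755).

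Of genes known as targets of STAT5 or of IL-2 and IL-15 in lymphocytes, 13 of 17 were measured (all but *Mcl1*, *Pim1*, *Pim2* and *Ccnd2*). Of these, 2 of 13 passed as higher, *Gzmb* and *Prf1*, and 0 as lower, against 1.72% and 0.396% of all genes. This list too was chosen with earlier results of these data known, and the paper reports *Gzmb* and *Prf1* as overexpressed. Counts over the list are therefore descriptions only. At an unadjusted p under 0.05 in limma, 5 of 13 were higher and 0 lower, against 7.39% and 4.49% of all genes. The log2 fold change was positive in 7 of 13. *Gzmb* encodes the cytotoxic protease granzyme B and rose by 2.16 ± 0.26 (SE) on the log2 scale (limma adjusted p = 0.00188), from between 6.61 and 7.41 in PBS to between 8.63 and 9.96 in hetIL-15 tumors. *Prf1* encodes the pore-forming protein of the same granules and rose by 1.77 ± 0.37 (limma adjusted p = 0.0349), from between 4.98 and 6.56 to between 6.84 and 8.19. For *Gzmb* and *Prf1* every hetIL-15 tumor lay above every PBS tumor, as in 1.85% of all genes. *Gzmb* passed with any single tumor left out, whereas *Prf1* did not when any of PBS replicates 1, 3 and 5 and hetIL-15 replicates 2 to 5 was dropped (adjusted p between 0.0749 and 0.0915). The median of the 13 genes was 0.17, and 0.055 without PBS replicate 1. *Lta*, a cytokine of the TNF family, had 1.56 ± 0.52 (adjusted p = 0.264), and *Ifng*, which encodes IFN-γ, had 0.92 ± 0.32 (adjusted p = 0.291) and was above every PBS tumor in 5 of 6 hetIL-15 tumors.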

How the data were processed

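The nCounter PanCancer Immune Profiling Panel was run on RNA of 11 whole MC38 tumors. The authors filtered low expressed genes (758 of 780 remained), log transformed and quantile normalized the data, and deposited log2 values, which were used as given. A deposited table also holds 11 columns of probe counts whose names match no tumor, and these were not used. Software versions of the upstream steps are not given in the sources used here. Tied values between genes of a tumor make up 69.9%, so low values move in steps.

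Tumors were grouped by the treatment in the labels. PBS and hetIL-15 tumors were compared over all 758 genes in R 4.3.3 by limma 3.58.1 (lmFit, eBayes), adjusted by Benjamini-Hochberg. Differences between the changes of 7 pairs of genes were tested by exact two-sided permutation, adjusted over the pairs. Procedures were tested on simulated data. Pathway genes, lists and markers were chosen with earlier results of these data known. Named genes are the 10 pathway genes, list genes that passed, up to 4 of each list with the smallest p, the 2 genes most correlated with each pathway gene, and markers used to describe a list. One gene this rule names is not reported here. Genes whose windows hold at least 2 motifs were named outside this rule. Alternatives were values scaled to the mean of the housekeeping genes or to each tumor's median, a filter on genes of low signal, an intensity trend, array weights, an exact Mann-Whitney test, the Bonferroni adjustment that the methods name, the replicate number as a block and each tumor left out. Plots were made in Python 3.11.15 using matplotlib 3.10.9.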

Additional observations from a re-analysis of the deposited data

Results flagged for a closer look

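Among 58 groups of tumors examined (each pathway gene, pair and named list gene in each treatment group), 3 held a tumor far from the others, and chance alone sets a tumor apart in about 1 of 20 groups. *Il15ra* was lowest in hetIL-15 replicate 6, at a log2 value of 6.84, while the other hetIL-15 tumors lay between 7.47 and 7.73. The within-tumor difference of *Il15ra* and *Il15* was highest in hetIL-15 replicate 3, at 1.05 on the log2 scale, while the other hetIL-15 tumors lay between −0.22 and 0.24. *Il21*, a gene of low signal, was lowest in hetIL-15 replicate 3, at a log2 value of 1.92, while the other hetIL-15 tumors lay between 3.34 and 4.17.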

How the results depend on the processing

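*Cish* and *Il2rb* kept their upward direction under every alternative run. Both passed an adjusted p of 0.05 with scaling to the median, without genes of low signal, with an intensity trend and with array weights, and *Cish* also with scaling to the housekeeping genes (1 gene of the 10 passed there, with *Il2rb* at 1.21) and with the replicate block (1 gene passed, *Il2rb* at 1.27 with an adjusted p of 0.0537). Without PBS replicates 4 and 5, added after seeing the data, 0 of 10 passed (*Cish* 1.35, *Il2rb* 0.93). The exact Mann-Whitney test (*Cish* 1.29 with an adjusted p of 0.173, *Il2rb* 1.13 with 0.234) and Bonferroni (0.250 and 0.751) gave 0 of 10. The former called 0 of 758 genes, with 69 at an unadjusted p under 0.05. With 1 tumor left out, 0 to 3 of 10 genes passed, with *Cish* between 1.17 and 1.45, *Il2rb* between 0.97 and 1.27 and *Socs1* between 0.30 and 0.44. The cause was not tested.

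Genes with a difference near 0 changed sign. Scaled to the housekeeping genes, which moved the median of all genes from −0.03 to 0.05, the values were 0.046 for *Il15*, 0.046 for *Jak1*, 0.079 for *Jak3* and 0.024 for *Stat5b*. Without PBS replicates 4 and 5 they were 0.076, 0.047, 0.045 and 0.017. With the replicate block *Il15* was 0.0077 and *Jak3* 0.076. With 1 tumor left out, *Il15* lay between −0.12 and 0.084, *Jak1* between −0.096 and 0.0048, and *Jak3* between −0.086 and 0.11.

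For pairs, leaving out 1 tumor gave 0.72 to 0.98 for *Il2rb* and *Il2rg*, 0.42 to 0.81 for *Il2rb* and *Il2ra*, 1.26 to 1.53 for *Il2rb* and *Il15ra*, 0.80 to 1.11 for *Cish* and *Socs1*, and −0.035 to 0.15 for *Jak3* and *Jak1*. A replicate block gave 0.98, 0.70, 1.43 and 0.89 for the first 4 of these, where the exact sign-flip test over 5 pairs cannot go below p = 0.0625. The Mann-Whitney test gave an adjusted p of 0.0530 for *Cish* and *Socs1* (0.92).

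The labels do not say whether a replicate number marks tumors that belong together, such as by a shared cage or day, and this was not tested. Correlations between same-numbered tumors ran from −0.05 to 0.13. The hetIL-15 tumor closest to a PBS tumor bore the same number for 1 of 5. Over all genes 16 passed, against 15 without hetIL-15 replicate 6 and 5 with the replicate block, which also leaves out that tumor since PBS has no such number (*Gzmb* kept passing, while *Prf1*, *Il21r*, *Ncr1* and *Klrc1* did not), 5 without PBS replicates 4 and 5, and as few as 8 with 1 tumor left out (hetIL-15 replicate 4). Counts per tumor were not used, so that background and depth do not bound the low values, such as those of *Cish*.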
